A study of Mus musculus with 21 samples.

Results

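Stromal cells act on the vessels around them through secreted factors, and 10 genes coding for such factors are described here in Nes low mesenchymal cells of mouse bone marrow: Vegfa, Vegfb, Vegfc, Vegfd, Pgf, Angpt2, Angptl4, Pdgfa, Fgf2 and Fgf7. They were picked by name for this role, and no measured value entered the rule, although earlier results of these data were known. All 10 were found among the 26852 genes of the expression table. All 10 were also among the 12976 genes tested, those with a mean over the 21 libraries of at least 3.32 on the log2 scale, which is 10 on the linear scale.

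The VEGF ligands signal through receptor tyrosine kinases of endothelial cells, Vegfa through Kdr, Vegfb and Pgf through Flt1, and Vegfc and Vegfd mainly through Flt4, with neuropilins as co-receptors. Flt4 is a receptor of lymphatic endothelium, and the authors also list its gene among the endothelial genes of CD31 cells in marrow. Angiopoietins act on the endothelial receptor Tek, where Angpt2 often opposes the vessel-stabilising Angpt1. PDGF and FGF ligands act largely on mural, mesenchymal and epithelial cells, and the perivascular stroma around the marrow sinusoids is a known source of several of these signals.

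RNA of sorted Nes low cells, the stromal fraction with low GFP from a transgene under the Nestin promoter, was sequenced in bulk from Nestin-GFP mice on the immune-deficient NSG background. Blood cells had been depleted with beads and the rest stained for CD45, Ter119 and CD31, but it is not stated that cells with CD31 were kept out of the Nes low sort, and the extraction text of these libraries speaks of endothelial cells, against their titles, by which they are called Nes low here. Leukemia came from HL60 or ML1, both human AML lines, which carried sLP-mCherry, a secreted lipid-permeable mCherry that labels the cells around them, into unconditioned hosts aged 8 to 12 weeks at transplant. The comparisons ask how Nes low cells differ between mice without leukemia and those at early and late times of leukemic progression, and, at early times, between cells with and without the mCherry label.

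The ctrl group held 3 libraries from mice without AML cells. The early ch+ group (mCherry-positive Nes low cells) and the early ch- group (mCherry-negative Nes low cells) held 6 libraries each, and the late group, which was not split by mCherry, held 6. Each of these 3 leukemic groups had 3 libraries from HL60 and 3 from ML1 hosts. The treatment label of the ML1 late libraries calls their hosts unengrafted, against their titles and time point, by which they were kept as late. The ch- cells came from the marrow that also gave ch+ cells, but the labels do not say which libraries share a host, so ch+ and ch- libraries were fitted as independent, which they may not be. The labels give no batch or date, and they do not say that each library is a separate mouse, so the p-values measure the spread between these libraries only.

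All levels are regularized log2 values as deposited. Their base was read from the values, since the written methods name another base, on which the highest values would exceed any number of reads. Read depth cannot be seen in them, and regularization draws the differences of weakly expressed genes towards 0, so those of Vegfd, the lowest of the 10, are the most likely to be understated. The linear values of a library summed, in units of 1e6, to between 11.9 and 14.2 in ctrl, 12.3 and 14.7 in early ch-, 11.2 and 12.6 in early ch+, and 7.26 and 9.02 in late. Nes was present at a like level in all groups, with a mean log2 level of 7.39 ± 0.24 (SD, n = 3) in ctrl, 7.32 ± 0.24 in early ch-, 7.30 ± 0.38 in early ch+ and 7.30 ± 0.52 in late (n = 6 each). Lepr, a receptor that marks perivascular stroma, stood at 12.60 in ctrl, 12.99 in early ch-, 13.27 in early ch+ and 14.57 in late. Pecam1 (CD31) and Ptprc (CD45) were low, Pecam1 with group means from 4.87 in late to 5.74 in early ch+, and Ptprc with 2.56 in ctrl, 4.21 in early ch-, 4.79 in early ch+ and 2.43 in late.

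Differences were tested with limma over all 12976 genes, and a gene was called at an adjusted p under 0.1. In late against ctrl, 5 of the 10 factors were called, where 21.5% of all tested genes were. Of these, Vegfc, Angpt2, Angptl4 and Fgf7 rose, 4 of 10 against 10.2% of all genes called higher, and Pdgfa fell, 1 of 10 against 11.4% called lower, although rescaling every library to its total brought its difference from −0.84 to −0.15 and ended the call. The median difference was 0.82 on the log2 scale over the 10 factors and 0.02 over all tested genes. In bulk libraries, fewer cells of a type and less RNA per cell cannot be told apart, here and in all that follows.

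At early times the counts were smaller. In early ch+ against ctrl, Vegfc and Fgf7 rose, 2 of 10 factors against 3.41% of all genes called higher and 6.17% called in either direction. None of the 10 was called lower, against 2.75% of all genes, and the 2 called genes were also the 2 with an unadjusted limma p under 0.05. The median over the 10 factors was −0.18, beside 0.01 over all genes. In early ch- against ctrl, limma called 0 of the 10 factors, against 1.92% of all genes, 1.13% higher and 0.786% lower, and 1 factor, Vegfc, had an unadjusted p under 0.05. Their median was −0.27, beside 0.01 over all genes. All comparisons with ctrl share the same 3 ctrl libraries.

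Between the early groups, Vegfd was higher in ch+ than in ch-, 1 of 10 factors against 3.58% of all genes called higher, 6.26% called in either direction and 2.68% called lower. In late against early ch+, Pgf, Angpt2, Angptl4 and Fgf2 were higher, 4 of 10 against 8.79%. In that comparison Vegfd and Pdgfa were lower, 2 of 10 against 10.9%, with 19.7% of all genes called in either direction, and Pdgfa changed sign to 0.13 when libraries were rescaled to their totals. In late against early ch-, Vegfc, Pgf, Angpt2, Angptl4, Fgf2 and Fgf7 were higher, 6 of 10 against 10.2%. Pdgfa was lower there, 1 of 10 against 12.3%, with 22.5% called in either direction, and its sign also turned, to 0.12, on rescaling. The medians over the 10 factors were 0.14 (ch+ against ch-, all genes −0.02), 0.45 (late against ch+, all genes 0.02) and 0.74 (late against ch-, all genes 0).

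**Figure D1:**
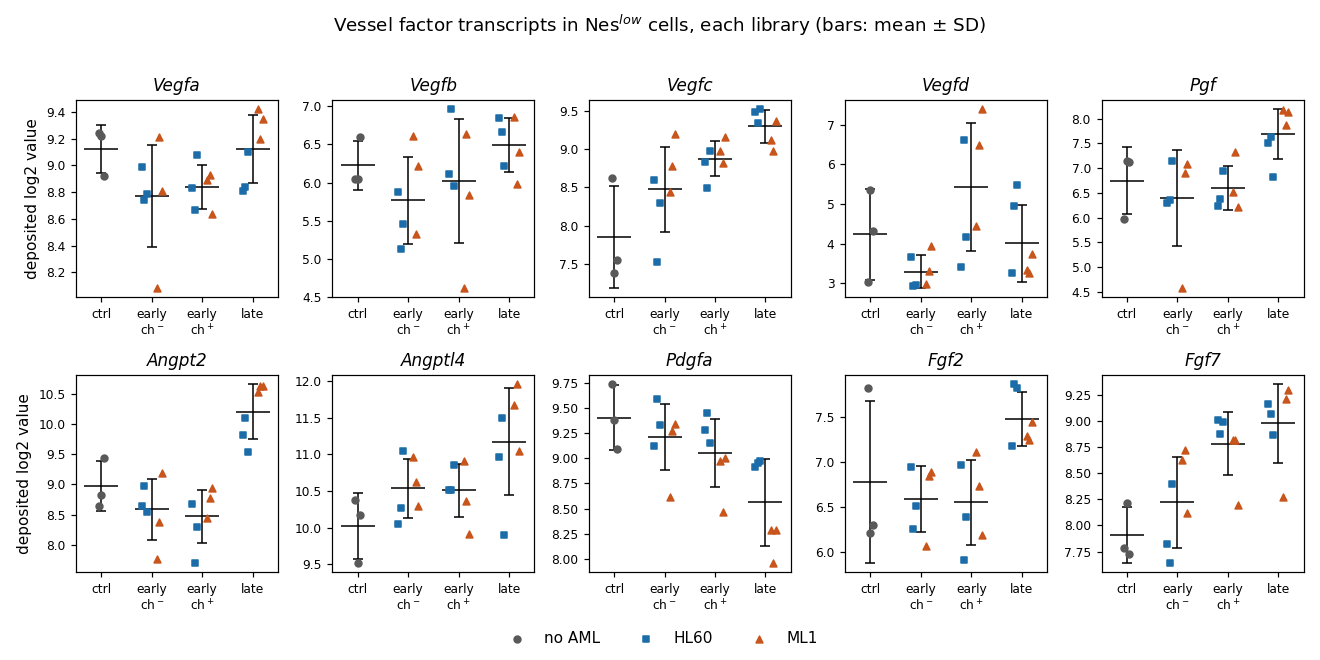
Deposited log2 level (y axis) of each of the 10 factors in every library, by group (x axis), with grey circles for ctrl, blue squares for HL60 and orange triangles for ML1, and black bars for the group mean ± SD. Every late library lies above every ctrl library for Vegfc, Angpt2 and Fgf7, and below for Pdgfa, whose difference between late and either early group changes sign when libraries are rescaled to their totals.

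With the lines apart, limma called 3 of the 10 factors in HL60 late against ctrl (13.7% of all genes) and 6 of 10 in ML1 late against ctrl (22% of all genes). In early ch+ against ctrl it called 2 of 10 in HL60 (5.33% of all genes) and 1 of 10 in ML1 (6.69%). In early ch- against ctrl it called 0 of 10 in HL60, with 0 at an unadjusted p under 0.05 (1.57% of all genes called), and 1 of 10 in ML1 (2.34%). Between early ch+ and ch- it called 1 of 10 in each line, against 3.92% of all genes in HL60 and 4.25% in ML1. A call in HL60 but not in ML1, or the reverse, does not show that the lines differ, which was tested directly. HL60 and ML1 differed in 1 of the 10 factors in late (4.09% of all genes). In early ch+ they differed in 0 of 10, with 1 at an unadjusted limma p under 0.05 (0.0154% of all genes called), and in early ch- in 0 of 10, with 2 at an unadjusted p under 0.05 (0.0539%). For the difference between the lines of ch+ against ch-, limma called 0 of 10, with 1 at an unadjusted p under 0.05, and 0.00771% of all genes.

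Rescaling each library to its total on the linear scale moved all genes together in the late group, whose totals were low. The median difference of all tested genes went from 0.02 to 0.71 in late against ctrl, from 0.02 to 0.63 in late against early ch+ and from 0 to 0.77 in late against early ch-, and from −0.02 to 0.13 in early ch+ against ch-. The share of calls that were higher went from 47.3% to 93.8% in late against ctrl, from 44.6% to 93.5% in late against ch+, and from 45.3% to 95.3% in late against ch-. For the early groups it went from 55.4% to 66.6% (ch+ against ctrl), from 59% to 41.9% (ch- against ctrl) and from 57.1% to 78.7% (ch+ against ch-). The differences given here for single genes are on the deposited scale, on which the medians of all genes lie at or near 0.

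Among the VEGF ligands, Vegfc is a growth factor for endothelium that acts mainly through Flt4. Its log2 level was 8.62, 7.38 and 7.55 in the ctrl libraries. In early ch- it ran from 7.53 through a median of 8.52 to 9.20, in early ch+ from 8.49 through 8.90 to 9.16, and in late from 8.97 through 9.36 to 9.52. All 6 late libraries exceeded all ctrl libraries, 5 of 6 early ch+ libraries did, and 2 of 6 early ch- libraries did.

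Vegfc rose 2.74-fold in late against ctrl, a log2 difference of 1.45 ± 0.26 (SE), with a 95% interval from 0.92 to 1.99 and an adjusted p of 0.000138. It rose 2.04-fold in early ch+ (1.03 ± 0.26, interval 0.49 to 1.56, adjusted p = 0.0197). In early ch- its difference from ctrl was 0.63 and missed the threshold (adjusted p = 0.326), as did that of 0.40 between ch+ and ch- (adjusted p = 0.376). The early ch- difference from ctrl was larger without ctrl replicate 373, the highest ctrl library (8.62). In that leave-out a factor was called in early ch- against ctrl. Late libraries exceeded early ch- by 0.83 (adjusted p = 0.00549), a call lost with the ML1 libraries alone (0.35, adjusted p over all alternatives up to 0.519), whereas the difference of 0.43 from early ch+ was not called (adjusted p = 0.206). The call in early ch+ was lost without ctrl replicate 374 or without ctrl replicate 375, where the difference over all leave-outs ran from 0.79 to 1.41 and the adjusted p reached 0.173.

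Vegfc rose in late with each line, by 1.60 in HL60 (adjusted p = 0.000102) and 1.30 in ML1 (adjusted p = 0.000649). It also rose in early ch+ with each line, by 0.91 in HL60 (adjusted p = 0.0586) and 1.14 in ML1 (adjusted p = 0.0102). In early ch- it was called in ML1 (0.96, adjusted p = 0.0763) and not in HL60 (0.29, adjusted p = 0.763), while HL60 minus ML1 was −0.66 and not called (adjusted p = 0.626). In the same comparisons 7 of 12 markers of CXCL12-abundant reticular cells were called higher in ML1 (median 0.67) and limma called 0 in HL60 (median 0.23, 2 at an unadjusted p under 0.05) and 0 for HL60 minus ML1 (6 at an unadjusted p under 0.05), and their part in the Vegfc levels was not tested. The HL60 call in early ch+ was lost without ctrl replicate 374 or 375 or HL60 replicate 523 or 525 (0.68 to 1.30, adjusted p up to 0.258), and with no filter or no variance trend (adjusted p up to 0.211). The ML1 call in early ch- was lost without ctrl replicate 374 or 375 or ML1 replicate 544 or 546 (0.72 to 1.34, adjusted p up to 0.299), and in 5 of 10 alternatives, among them no filter, no variance trend and rescaling to library totals (0.83 to 1.06, adjusted p up to 0.263).

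Vegfd, the other ligand of Flt4, was the most variable of the 10, spanning 4.47 log2 units over the 21 libraries. Its level was 3.04, 5.34 and 4.31 in ctrl, from 2.92 through 3.14 to 3.94 in early ch-, from 3.41 through 5.47 to 7.39 in early ch+, and from 3.25 through 3.54 to 5.49 in late. In early ch- its mean of 3.29 lay under the filter of 3.32. All 6 ch- libraries were low, and 5 of 6 ch+ libraries lay above every one of them, HL60 replicate 523 being the exception.

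Vegfd was 4.37-fold higher in early ch+ than in ch- (log2 difference 2.13 ± 0.54, interval 1.03 to 3.23, adjusted p = 0.0146). Against ctrl neither early group was called, with 1.19 in ch+ (adjusted p = 0.38) and −0.94 in ch- (adjusted p = 0.625), nor was late (−0.23, adjusted p = 0.878). These differences from ctrl leaned on single ctrl libraries, being lower without replicate 373 (3.04) and higher without replicate 374 (5.34). Late was lower than early ch+ by 1.41 (log2 difference −1.41, adjusted p = 0.0768). The call of late against ch+ was lost without any 1 of the ML1 late replicates 581, 582 and 583, HL60 late replicate 397, HL60 ch+ replicate 524 and ML1 ch+ replicates 539 and 541 (−1.82 to −1.02, adjusted p up to 0.225), and in 7 of 13 alternatives, among them no filter, rescaling to library totals, no variance trend and robust variance. Late against ch+ was −0.16 with the HL60 libraries alone, without a call, and −2.66 with the ML1 libraries alone (adjusted p over all alternatives up to 0.947).

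With the lines apart, Vegfd in HL60 read 3.41, 6.62 and 4.16 in ch+ and 3.65, 2.92 and 2.95 in ch-. In ML1 it read 4.44, 6.49 and 7.39 in ch+ and 2.98, 3.30 and 3.94 in ch-. The ML1 groups did not overlap and the HL60 groups did. The difference between ch+ and ch- was called in ML1 (2.70, adjusted p = 0.0249) and not in HL60 (1.55, adjusted p = 0.33), and the difference between the lines was −1.14 and not called (adjusted p = 0.918). The ML1 call was lost without ML1 ch+ replicate 539 or 541 or ML1 ch- replicate 543 (2.06 to 3.53, adjusted p up to 0.184), and with no filter or with sample weights (adjusted p up to 0.207).

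Pgf, placental growth factor, which binds Flt1, read 5.97, 7.15 and 7.12 in ctrl. It ran from 4.57 through 6.64 to 7.15 in early ch-, from 6.22 through 6.44 to 7.32 in early ch+, and from 6.83 through 7.76 to 8.17 in late. 5 of 6 late libraries lay above all ctrl and all early ch- libraries, and 5 of 6 lay above all early ch+ libraries. Against the early groups Pgf was higher in late, by 1.09 ± 0.34 over ch+ (adjusted p = 0.0255) and by 1.30 ± 0.34 over ch- (adjusted p = 0.00638). Against ctrl its difference in late was 0.95 ± 0.42 and missed the threshold (adjusted p = 0.131), and those of the early groups were −0.15 (ch+, adjusted p = 0.903) and −0.35 (ch-, adjusted p = 0.799). These differences from ctrl were lower without ctrl replicate 373 (5.97), the lowest ctrl library.

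The late Pgf levels were 8.17, 7.88 and 8.13 in ML1 and 7.51, 7.64 and 6.83 in HL60, so that every ML1 library was above every HL60 library. Pgf rose in ML1 late against ctrl (1.31, adjusted p = 0.0512) and was not called in HL60 late (0.58, adjusted p = 0.54), and HL60 minus ML1 was −0.73 and not called (adjusted p = 0.694). The ML1 call was lost without ctrl replicate 373 or ML1 late replicate 581 or 583 (0.92 to 1.52, adjusted p up to 0.249), and with no filter (adjusted p up to 0.169). With the HL60 libraries alone, late against ch+ was 0.81 and late against ch- 0.73, and neither was called.

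Vegfa, the main growth factor of blood vessel endothelium, varied least of the 10, over 1.34 log2 units. It read 9.24, 9.22 and 8.92 in ctrl, from 8.08 through 8.80 to 9.21 in early ch-, from 8.64 through 8.86 to 9.08 in early ch+ and from 8.81 through 9.15 to 9.42 in late. All 4 groups overlapped. Vegfa was not called in any comparison of the 4 groups, and its difference in late against ctrl was −0.01 with a 95% interval from −0.40 to 0.39 (adjusted p = 0.991), a sign that turned under other settings. In the early groups it was −0.29 (ch+, adjusted p = 0.491) and −0.35 (ch-, adjusted p = 0.488). Within late, every ML1 library (9.42, 9.20 and 9.35) was above every HL60 library (8.81, 8.84 and 9.10), and HL60 minus ML1 was −0.41 and not called (adjusted p = 0.534).

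Vegfb, a ligand of Flt1 tied to fatty acid handling in endothelium, read 6.04, 6.04 and 6.60 in ctrl. It ran from 5.13 through 5.66 to 6.61 in early ch-, from 4.61 through 6.04 to 6.96 in early ch+ and from 5.98 through 6.53 to 6.86 in late. The groups overlapped throughout, and Vegfb was not called in any of the 6 comparisons of the 4 groups, with 0.27 in late against ctrl (adjusted p = 0.729) and 0.73 in late against early ch- (adjusted p = 0.127). In HL60 all 3 ch+ libraries were above all 3 ch- libraries, with a difference of 0.86 that was not called (adjusted p = 0.432), and the difference between the lines was not called either (adjusted p = 0.782).

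**Figure D2:**
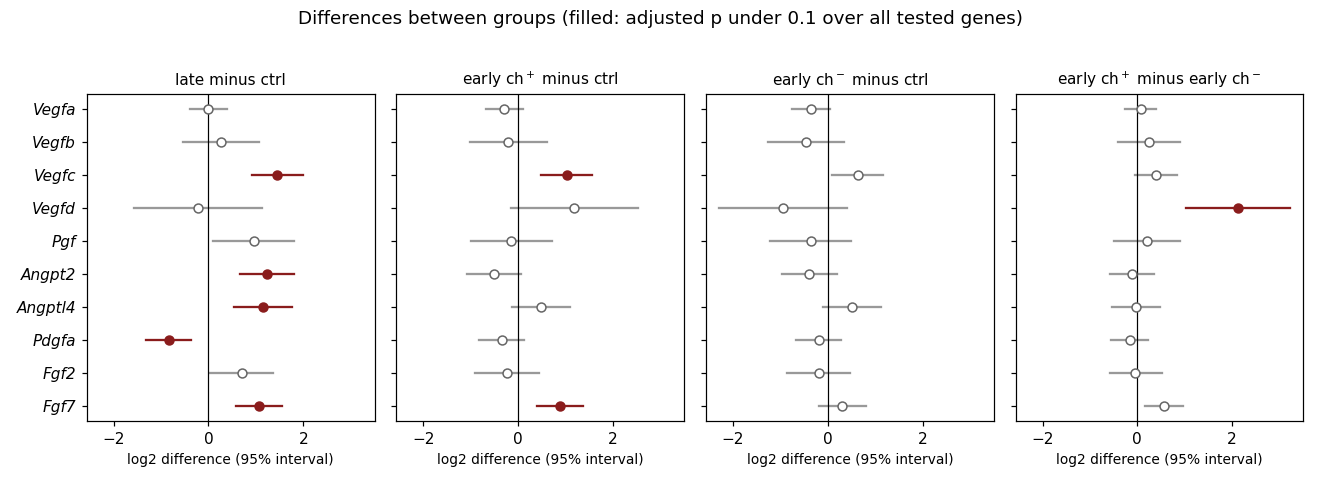
Log2 difference (x axis) of each factor (y axis) in 4 comparisons, 1 per panel, as the limma estimate (point) with its 95% interval (line), filled and red where the adjusted p over all tested genes was under 0.1. In late against ctrl Vegfc, Angpt2, Angptl4 and Fgf7 lie to the right of 0 and Pdgfa to the left (−0.84, and −0.15 without a call when libraries are rescaled to their totals), and in early ch- against ctrl no point is filled.

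Angpt2, the angiopoietin that loosens the contact of endothelium with mural cells, had its high levels in the late libraries. It read 8.64, 8.83 and 9.44 in ctrl, from 7.77 through 8.59 to 9.19 in early ch-, from 7.70 through 8.56 to 8.94 in early ch+ and from 9.54 through 10.30 to 10.63 in late. Every late library was above every library of the other 3 groups, while the ctrl and early groups overlapped.

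Angpt2 rose 2.35-fold in late against ctrl (log2 difference 1.23 ± 0.28, interval 0.66 to 1.81, adjusted p = 0.00193). Late was 3.33-fold above early ch+ (1.73 ± 0.23, interval 1.27 to 2.20, adjusted p = 1.25e-06) and 3.07-fold above early ch- (1.62 ± 0.23, interval 1.15 to 2.09, adjusted p = 3.45e-06). Neither early group was called against ctrl, with −0.50 in ch+ (adjusted p = 0.384) and −0.39 in ch- (adjusted p = 0.638). These late calls held in all 14 alternatives of the processing and all 21 leave-outs.

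Late Angpt2 read 10.52, 10.63 and 10.62 in ML1 and 9.82, 10.09 and 9.54 in HL60, and the lines did not overlap. It rose in ML1 late by 1.62 (adjusted p = 4.3e-05) and in HL60 late by 0.85 (adjusted p = 0.0434), and HL60 minus ML1 was −0.77 and not called (adjusted p = 0.166). The HL60 call was lost without ctrl replicate 373 or 374 or HL60 late replicate 397 or 398 (0.68 to 1.08, adjusted p up to 0.198), and with no filter or no variance trend (adjusted p up to 0.199).

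Angptl4, a secreted inhibitor of lipoprotein lipase that also acts on vessel permeability, read 10.38, 9.52 and 10.17 in ctrl. It ran from 10.05 through 10.46 to 11.04 in early ch-, from 9.92 through 10.52 to 10.91 in early ch+ and from 9.90 through 11.27 to 11.96 in late. 5 of 6 late libraries were above all ctrl libraries, and HL60 late replicate 399 was the lowest of the late group. Angptl4 rose 2.22-fold in late against ctrl (1.15 ± 0.30, interval 0.54 to 1.76, adjusted p = 0.00665), and was not called in early ch+ (0.49, adjusted p = 0.433) or ch- (0.52, adjusted p = 0.527).

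Late Angptl4 was 0.66 above early ch+ (adjusted p = 0.0674) and 0.63 above early ch- (adjusted p = 0.0738). Both calls were lost in 7 of 14 alternatives, no filter, no variance trend and the HL60 libraries alone among them. With HL60 alone the differences were 0.16 and 0.33, without a call, and with ML1 alone 1.16 and 0.93 (adjusted p over all alternatives up to 0.866 and 0.632). The call against ch+ was also lost without ML1 late replicate 581 or 582, HL60 late replicate 398 or ML1 ch+ replicate 539 or 541 (0.50 to 0.91, adjusted p up to 0.195). That against ch- was lost without ML1 late replicate 581 or 582, HL60 late replicate 398, HL60 ch- replicate 527 or 528 or ML1 ch- replicate 546 (0.47 to 0.89, adjusted p up to 0.209). Late levels were 11.67, 11.96 and 11.04 in ML1 and 10.96, 11.50 and 9.90 in HL60, with overlap. Angptl4 rose in ML1 late (1.53, adjusted p = 0.000412) and was not called in HL60 late (0.76, adjusted p = 0.127), and HL60 minus ML1 was −0.77 and not called (adjusted p = 0.265).

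Pdgfa codes for a PDGF chain that signals through Pdgfra on mesenchymal cells. It read 9.74, 9.38 and 9.09 in ctrl, from 8.62 through 9.30 to 9.59 in early ch-, from 8.47 through 9.07 to 9.45 in early ch+ and from 7.96 through 8.60 to 8.97 in late. All 6 late libraries were below all ctrl libraries, and the early groups overlapped with both. Pdgfa fell in late to 0.559 of ctrl (log2 difference −0.84 ± 0.23, interval −1.32 to −0.36, adjusted p = 0.0117), but to −0.15 with no call on rescaling to library totals. The call was also lost with the HL60 libraries alone and without ctrl replicate 373, where the leave-outs ran from −1 to −0.67 and the adjusted p reached 0.101. A required log2 difference of at least 1 ended it too. It held in 11 of 14 alternatives, quantile normalization among them.

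Late Pdgfa was below early ch+ (−0.49, adjusted p = 0.0867) and early ch- (−0.65, adjusted p = 0.0157), signs that turned to 0.13 and 0.12 on rescaling, and neither was called with the HL60 libraries alone. The early groups were not called against ctrl, at −0.35 in ch+ (adjusted p = 0.492) and −0.19 in ch- (adjusted p = 0.809). The call of late against ch+ was lost without ML1 late replicate 581, 582 or 583, HL60 ch+ replicate 523, 524 or 525, or ML1 ch+ replicate 538 or 541 (−0.61 to −0.37, adjusted p up to 0.237), and in 8 of 14 alternatives, no filter, quantile normalization and no variance trend among them.

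Pdgfa was also the factor that differed between the lines. In late it read 8.91, 8.95 and 8.97 in HL60 and 8.29, 7.96 and 8.29 in ML1, and the lines did not overlap. HL60 exceeded ML1 by 0.77 ± 0.21 (adjusted p = 0.0393). Against ctrl it fell in ML1 late (−1.22, adjusted p = 6.46e-05; −0.41 with no call on rescaling) and was not called in HL60 late (−0.46, adjusted p = 0.205; 0.11 on rescaling). In early ch+ all 3 HL60 libraries were likewise above all 3 ML1 libraries, by 0.48, without a call (adjusted p = 0.616). The late difference between the lines was not called without ML1 late replicate 582 or HL60 late replicate 397, 398 or 399 (0.66 to 0.82, adjusted p up to 0.224), nor with no filter, without the variance trend or on rescaling (adjusted p up to 0.246). Markers of other cells differed between the lines in late as well: 10 of 12 osteoblast markers (median 1.51) and 7 of 11 tested chondrocyte markers (median 1.99) were higher in HL60 and 0 lower, beside a median of 0 over all genes, and their part in the Pdgfa difference was not tested.

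Fgf7, keratinocyte growth factor, which acts on epithelial cells through a splice form of Fgfr2, read 7.78, 8.22 and 7.73 in ctrl. It ran from 7.64 through 8.26 to 8.72 in early ch-, from 8.20 through 8.85 to 9.01 in early ch+ and from 8.27 through 9.12 to 9.30 in late. All 6 late libraries were above all ctrl libraries, and 5 of 6 early ch+ libraries were above all ctrl and above all ch- libraries. The exception was ML1 replicate 541.

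Fgf7 rose 2.10-fold in late against ctrl (1.07 ± 0.24, interval 0.58 to 1.56, adjusted p = 0.00178) and 1.84-fold in early ch+ (0.88 ± 0.24, interval 0.39 to 1.37, adjusted p = 0.0323). It was not called in early ch- (0.31, adjusted p = 0.669). The difference between ch+ and ch-, 0.57 ± 0.20, missed the threshold in the unpaired fit (adjusted p = 0.111). Paired by order of replicate number within each line, which the labels do not state, every ch+ library exceeded its ch- counterpart. No paired test was run. Late exceeded ch- by 0.76 (adjusted p = 0.0057), a call lost with the ML1 libraries alone (0.43, adjusted p over all alternatives up to 0.391), and its difference of 0.19 from ch+ was not called (adjusted p = 0.614). The early ch+ call was lost without ctrl replicate 373 or 375 (0.79 to 1.03, adjusted p up to 0.144), with no filter and with the ML1 libraries alone.

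In HL60, Fgf7 read 9.01, 8.88 and 8.99 in ch+ and 7.82, 7.64 and 8.40 in ch-, without overlap. In ML1 it read 8.82, 8.82 and 8.20 in ch+ and 8.63, 8.72 and 8.12 in ch-, with overlap. In HL60 it was higher in ch+ than in ch- (1.01, adjusted p = 0.0244), a call lost without HL60 ch- replicate 528 (0.85 to 1.23, adjusted p up to 0.177) and with no filter (adjusted p up to 0.108), and in ML1 it was not called (0.12, adjusted p = 0.882). The difference between the lines was 0.88 ± 0.36, with an unadjusted p of 0.0218 and an adjusted p of 0.707. Against ctrl, Fgf7 rose in HL60 ch+ (1.05, adjusted p = 0.0161), HL60 late (1.12, adjusted p = 0.00315) and ML1 late (1.01, adjusted p = 0.00486), and was not called in ML1 ch+ (0.70, adjusted p = 0.134).

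Fgf2, basic fibroblast growth factor, a mitogen of endothelial and mesenchymal cells, read 7.82, 6.21 and 6.30 in ctrl. It ran from 6.06 through 6.68 to 6.94 in early ch-, from 5.90 through 6.56 to 7.11 in early ch+ and from 7.18 through 7.36 to 7.87 in late. Every late library was above every early library, whereas ctrl replicate 373 lay within the late range and the other ctrl libraries below it. Late exceeded early ch+ by 0.92 ± 0.27 (adjusted p = 0.0153) and early ch- by 0.89 ± 0.27 (adjusted p = 0.0179). Against ctrl, the difference of late was 0.70 ± 0.33 (adjusted p = 0.161) and those of ch+ and ch- were −0.23 (adjusted p = 0.789) and −0.19 (adjusted p = 0.875). Without ctrl replicate 373 (7.82), the highest ctrl library, the difference of late was larger and those of the early groups turned positive. Both late calls were lost with the ML1 libraries alone, and that against ch- also with HL60 alone.

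Per kilobase of exon, on the log2 scale, Angptl4 had the highest mean level of the 10 in every group. In ctrl the order of mean levels was Angptl4 (8.20), Pdgfa (7.76), Angpt2 (7.09), Vegfa (7.03), Vegfc (6.56), Fgf7 (6.21), Vegfb (5.54), Pgf (5.21), Fgf2 (4.01) and Vegfd (2.96). Neighbours in this order overlapped over the libraries except Fgf7 and Vegfb. In late the order was Angptl4 (9.35), Angpt2 (8.32), Vegfc (8.01), Fgf7 (7.28), Vegfa (7.02), Pdgfa (6.92), Pgf (6.16), Vegfb (5.81), Fgf2 (4.71) and Vegfd (2.74). There the neighbours Vegfc and Fgf7, Vegfb and Fgf2, and Fgf2 and Vegfd did not overlap. In early ch- Angptl4 (8.71) was followed by Pdgfa (7.57) and Vegfc (7.18), and Fgf2 (3.82) and Vegfd (2.02) were last. In early ch+ Angptl4 (8.69) was followed by Vegfc (7.58) and Pdgfa (7.41), and Vegfd (4.15) lay between Pgf (5.06) and Fgf2 (3.78). The step from Angptl4 to the next gene had no overlap in either early group.

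The 10 genes lie on different stretches of the genome (GRCm38, GENCODE M21). Angpt2 (chr8:18690263-18741562, minus strand) and Vegfc (chr8:54077606-54187096, plus strand) share chromosome 8, and Angptl4 (chr17:33773750-33781830, minus) and Vegfa (chr17:46016993-46032369, minus) share chromosome 17. Fgf7 lies at chr2:126034658-126091185 (plus), Fgf2 at chr3:37348346-37410108 (plus), Pdgfa at chr5:138976014-138997370 (minus) and Pgf at chr12:85166635-85177790 (minus). Vegfb lies at chr19:6982473-6987651 (minus) and Vegfd at chrX:164373378-164402650 (plus). All 10 are annotated as protein coding. Pdgfa shares 813 exon bases (26.1% of its own) with the antisense gene 6330403L08Rik, and Fgf2 shares 640 (9.44%) with Nudt6 on the opposite strand. The counting used strand, but whether it kept the reads of these opposite-strand overlaps apart was not tested. The 255 exon bases (3.76%) that Fgf2 shares with Gm43439 lie on the same strand, and reads there are uncertain.

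The upstream windows of Fgf7 and Vegfc are shown because both were called in early ch+ and in late. They hold 250 bases before the RefSeq start (GRCm38.p6, plus strand, chr2:126034408-126034657 for Fgf7 and chr8:54077282-54077531 for Vegfc). Over the libraries the Pearson r of this pair was 0.63, below that of Pgf and Angpt2 (0.79). Capitals mark ACGTG or GCGTG on either strand, the core letters bound by hypoxia-inducible factors, a motif picked after the data had been seen. The letters were found in 12679 of 32851 such windows (38.6%).
Fgf7: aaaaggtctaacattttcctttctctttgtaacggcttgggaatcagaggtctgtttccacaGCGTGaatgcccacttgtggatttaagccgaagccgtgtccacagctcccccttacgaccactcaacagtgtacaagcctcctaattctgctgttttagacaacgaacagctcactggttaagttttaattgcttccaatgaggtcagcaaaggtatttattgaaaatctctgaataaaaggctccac
Vegfc: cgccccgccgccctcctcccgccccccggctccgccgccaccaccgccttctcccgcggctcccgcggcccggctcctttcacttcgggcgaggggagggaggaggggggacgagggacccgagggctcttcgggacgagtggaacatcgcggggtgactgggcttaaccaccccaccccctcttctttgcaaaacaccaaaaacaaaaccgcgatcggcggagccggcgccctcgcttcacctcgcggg
The Fgf7 window holds 1 place and the Vegfc window holds 0. Of the 10 factors, 8 were matched by symbol, with 11 windows, of which 6 hold the letters (Fgf2, Fgf7, Vegfb and 1 window each of Pdgfa, Pgf and Vegfa). Angpt2 and Angptl4 are named only. A match here describes the letters and is no binding site.

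The lists that follow hold none of the 10 factors themselves. Of the receptors these ligands use, the VEGF receptors and co-receptors (5 genes, 5 tested) were called in 2 cases in late against ctrl, 1 higher and 1 lower (median −0.53, all genes 0.02; 2 higher and 1 lower on rescaling to library totals). Nrp1, a co-receptor of Vegfa, rose by 2.24 (adjusted p = 6.18e-11), and Nrp2, a co-receptor of Vegfc, fell (−1.58, adjusted p = 2.93e-09). In early ch+ Nrp1 rose by 1.13 (adjusted p = 1.29e-05) and Nrp2 fell (−0.55, adjusted p = 0.0146), with a list median of 0.34. In early ch- Nrp1 alone of the 5 was called (0.78, adjusted p = 0.00403; list median 0.05). The other 3 genes of the list, all receptors of endothelium, were not called in these 3 comparisons.

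Of 7 tested genes among 11 for other angiopoietins, Tie receptors and angiopoietin-like proteins, with the lipase Lpl and its anchor Gpihbp1 and without Angpt2 and Angptl4, 1 rose and 1 fell in late (median −0.08; 4 higher, 0 lower and a median of 0.61 on rescaling), 2 rose in early ch+ (median 0.47) and 1 rose in early ch- (median 0.04). Angpt1, the agonist of Tek that Angpt2 opposes, rose in all 3, by 1.09 in late (adjusted p = 0.000555), 1.36 in early ch+ (adjusted p = 0.000196) and 1.04 in early ch- (adjusted p = 0.0095). Lpl, the lipase that Angptl4 inhibits, rose in early ch+ (0.78, adjusted p = 0.00944). Angptl2 fell in late (−0.69, adjusted p = 0.0573), a difference of 0 on rescaling to library totals.

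Of 5 tested genes among 6 other PDGF ligands and receptors (without Pdgfa), 1 rose and 4 were lower in late (median −0.92; 2 higher and 1 lower on rescaling). Of the 4, Pdgfra, the receptor of Pdgfa, was called in the other direction on rescaling. In early ch+ limma called 0 (median −0.01, 1 at an unadjusted p under 0.05), and in early ch- 0 (median 0.01, 0 at an unadjusted p under 0.05). Pdgfrb, a receptor of mural cells, rose by 2.00 in late (adjusted p = 3.2e-09). It is also in the list of pericyte and smooth muscle markers below, most of which fell in late on the deposited scale. The ligands Pdgfc (−1.44, adjusted p = 9.16e-05) and Pdgfd (−0.92, adjusted p = 0.00598) and Pdgfrl (−1.11, adjusted p = 0.0281) fell, the last 2 without a call on rescaling to library totals.

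Of 7 tested genes among 14 for other FGF ligands, receptors, binding proteins and a co-receptor (13 in the table; Fgf2 and Fgf7 left out), 4 were lower and 0 higher in late (median −0.83; 1 each on rescaling). Fgfr3 (−1.84, adjusted p = 8.19e-05), Fgf1 (−1.12, adjusted p = 0.0396) and Fgfr1 (−0.83, adjusted p = 4.14e-05) fell, the last 2 without a call on rescaling, and Fgfr2 stood at −0.46 (adjusted p = 0.0393) and turned to 0.24. In early ch+ 2 fell (median −0.40), Fgf1 (−2.10, adjusted p = 0.000672) and the receptor Fgfr4 (−1.49, adjusted p = 0.0336). In early ch- limma called 0, with 0 at an unadjusted p under 0.05 (median −0.27).

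Among vessel inhibitors (11 of 12 tested), 4 rose and 5 fell in late (median −0.06; 5 higher and 4 lower on rescaling), 1 rose and 2 fell in early ch+ (median −0.23) and limma called 0 in early ch- (median −0.11, 3 at an unadjusted p under 0.05). Cnmd, the cartilage protein chondromodulin, fell by 3.60 in late (log2 difference −3.60, adjusted p = 3.55e-05). Serpinf1, which codes for PEDF (−2.13, adjusted p = 9.07e-05), the guidance factor Sema3a (−2.06, adjusted p = 2.4e-06) and the matrix protein Thbs1 (−1.61, adjusted p = 4.58e-08) fell as well. In early ch+ Cnmd fell (−4.36, adjusted p = 1.48e-05) and Sema3a rose (1.08, adjusted p = 0.0197).

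Of 12 tested genes among 16 other stromal vessel factors, 9 rose and 1 fell in late (median 0.68, and the same counts on rescaling), 5 rose in early ch+ (median 0.46), and 1 rose and 1 fell in early ch- (median 0.13). Efnb2, a ligand of arterial patterning, fell in late (−1.83, adjusted p = 2.93e-05), and Hgf (1.34, adjusted p = 0.0275), Esm1 (1.06, adjusted p = 0.00055) and the chemokine Cxcl12 (0.99, adjusted p = 0.000282) rose. The Cxcl12 difference in late was 2.7 under quantile normalization and 1.68 on rescaling. In early ch+ Cxcl12 (0.88, adjusted p = 0.00395) and Kitl, stem cell factor (0.82, adjusted p = 0.0108), rose.

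Vegfa and Angptl4 are known targets of hypoxia-inducible factors, and Angptl4 of PPAR receptors. Of 18 tested genes among 20 for hypoxia-inducible factors, their regulators and other targets, 2 rose and 6 fell in late (median −0.32), but 7 rose and 0 fell on rescaling to library totals (median 0.37, all genes 0.71). Epas1, the HIF-2α gene, rose by 1.21 (adjusted p = 4.82e-06), and the targets P4ha1 (−1.03, adjusted p = 0.000568), Pdk1 (−0.90, adjusted p = 0.0992) and Ndrg1 (−0.84, adjusted p = 0.0114) fell, without a call on rescaling, and that of Pdk1 held in 7 of 21 leave-outs only. In early ch+ 2 fell (median −0.32), the glucose transporter Slc2a1 (−0.77, adjusted p = 0.0582) and Ldha (−0.49, adjusted p = 0.037), both without a call on rescaling. In early ch- limma called 0 (median −0.13, 3 at an unadjusted p under 0.05). Of 14 PPAR genes, all tested, 3 rose in late (median 0.39; 11 on rescaling, median 1.09), among them Pparg (1.97, adjusted p = 4.27e-06) and Pdk4 (0.89, adjusted p = 0.0204). In early ch+ 2 rose (median 0.02), Pparg (1.67, adjusted p = 0.000221) and Ucp2 (1.57, adjusted p = 0.0194), and in early ch- 1 rose (median 0.04), Pparg (1.45, adjusted p = 0.00314).

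Markers of other cell types moved with the groups as well, and their part in the levels of the 10 factors was not tested. Of 12 markers of CXCL12-abundant reticular cells, perivascular stroma of the marrow, 9 rose and 1 was lower in late (median 1.05; 12 higher and 0 lower on rescaling), 8 rose in early ch+ (median 0.80) and 1 rose in early ch- (median 0.46). Their summed linear level, in units of 1e3 as for all lists below and with Cxcl12 the most abundant, had a lowest, median and highest value of 47.7, 55.6 and 74.6 in ctrl, 50.6, 79.2 and 98.1 in early ch-, 81.9, 102 and 123 in early ch+ and 115, 123 and 144 in late. Every late library was thus above every ctrl library.

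Of 12 osteoblast markers, 1 rose and 9 were lower in late (median −1.62; 2 higher and 8 lower on rescaling), 0 were called in early ch+ (median −0.39, 1 at an unadjusted limma p under 0.05) and 1 rose in early ch- (median 0). With the lines apart, osteoblast markers were called lower in early ch+ against ctrl, 4 in HL60 (median −0.41) and 3 in ML1 (median −0.39). Their sum, led by Col1a1, was 1260, 1400 and 1720 in ctrl, 1050, 1280 and 1470 in early ch-, 948, 988 and 1110 in early ch+ and 86.1, 272 and 532 in late, where it was 137, 86.1 and 95.3 in ML1 and 511, 532 and 408 in HL60. Of 11 tested chondrocyte markers among 12, 11 fell in late (median −3.61), 10 fell in early ch+ (median −3.26) and 0 were called in early ch- (median −0.74, 1 at an unadjusted limma p under 0.05). Their sum was 108, 137 and 204 in ctrl, 73.1, 95.8 and 126 in early ch-, 35.2, 44.2 and 59.6 in early ch+ and 4.78, 12.7 and 26.8 in late. The late values were 6.85, 5.45 and 4.78 in ML1 and 26.8, 25.1 and 18.6 in HL60. Col2a1 led the sum in ctrl and in most late libraries, Col11a1 in early ch+, and either of them in early ch-, depending on the library. The mean linear value of Matn1 itself (not in those units, here and below) was under 10 in early ch+ and late.

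Of 12 pericyte and smooth muscle markers, 2 rose and 7 fell in late (median −0.72, and 3 each on rescaling), 9 fell in early ch+ (median −1.27) and 0 were called in early ch- (median −0.35, 4 at an unadjusted limma p under 0.05). Their sum was 24.8, 31.8 and 42.8 in ctrl, 19.5, 25.0 and 30.2 in early ch-, 12.2, 14.2 and 15.8 in early ch+ and 25.1, 25.4 and 29.8 in late, with Rgs5 the most abundant gene and Pdgfrb so in late. Of 9 tested endothelial markers among 12, 1 rose and 1 was lower in late (median −0.53; 3 higher and 0 lower on rescaling), 1 fell in early ch+ (median 0.21) and 0 were called in early ch- (median −0.05, 0 at an unadjusted limma p under 0.05). Their sum was small, 0.627, 0.722 and 0.759 in ctrl, 0.595, 0.656 and 0.873 in early ch-, 0.594, 0.81 and 1.02 in early ch+ and 0.675, 0.772 and 0.944 in late, led by Eng, with Tie1, Cldn5 and Egfl7 under 10 in every group.

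Markers of blood, red and skeletal muscle cells that are low in ctrl and late could pass the filter only through the early groups, where they had to be higher, so the counts of these 3 lists describe the tested genes and support nothing. Of the blood cell markers (8 of 12 tested), 8 were called higher in early ch+ (median 2.81) and 7 in early ch- (median 2.60), and 2 were lower in late (median −0.16, and 0 on rescaling). Their sum was 0.274, 0.408 and 0.482 in ctrl, 1.33, 1.64 and 2.69 in early ch-, 1.03, 1.89 and 2.36 in early ch+ and 0.128, 0.206 and 0.271 in late. Lyz2 led it in most libraries, but in early ch+ the leading gene was Lyz2 or S100a9, depending on the library. Of those tested, Ptprc, Itgam, Elane and Csf3r were under 10 in ctrl and late, and S100a8 and Mpo in late. Red cell markers (9 of 10 tested) were called higher in early ch+ (8, median 3.60) and early ch- (7, median 3.39), and 4 were lower in late (median −0.62; 2 higher and 4 lower on rescaling). Their sum was 0.345, 0.457 and 0.715 in ctrl, 5.13, 7.76 and 10.3 in early ch-, 4.4, 8.57 and 13.0 in early ch+ and 0.106, 0.127 and 0.155 in late. Hbb-bs was the most abundant gene in most libraries outside late, while in late the leading gene was Hba-a1, Hbb-bs or Epor, depending on the library. Klf1 was under 10 in ctrl and late, and Alas2 and Slc4a1 in late.

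Skeletal muscle markers (7 of 10 tested) were called higher in early ch+ (6, median 2.21) and early ch- (2, median 1.60), and 2 were lower in late (median −0.68, and 0 on rescaling). Their sum was 0.203, 0.21 and 0.226 in ctrl, 0.216, 0.336 and 0.549 in early ch-, 0.243, 0.522 and 0.73 in early ch+ and 0.0743, 0.0873 and 0.15 in late, with Actn3 the most abundant gene (Acta1 in early ch+), and 9 of the 10 genes, all but Actn3, were under 10 in late. In ctrl 5 were (Myh1, Myh4, Tnnc2, Mb and Atp2a1), and Myh4 was so in every group. Of 10 tested proliferation genes among 12, 3 fell in late (median −0.61; 1 on rescaling), 1 rose in early ch+ (median 0.21) and 0 were called in early ch- (median 0.02, 1 at an unadjusted limma p under 0.05). These marker lists share Kdr, Flt1, Tek, Tie1, Pdgfra, Pdgfrb, Cxcl12 and Kitl with the lists of receptors and vessel factors above.

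Between the early groups, where Vegfd was higher in ch+, 10 of 11 tested chondrocyte markers (median −3.08), 9 of 12 pericyte and smooth muscle markers (median −1.14) and 2 of 12 osteoblast markers (median −0.31) were lower in ch+ than in ch-, and 1 of 12 reticular cell markers was higher (median 0.29). In that comparison limma called 0 endothelial (median 0.19, 1 at an unadjusted p under 0.05), blood (0.13, 0), red cell (0.10, 0) and skeletal muscle (0.69, 4) markers and 0 proliferation genes (0.11, 1). In late against early ch+, 8 pericyte and smooth muscle markers were higher and 1 lower (median 1.1; 11 and 1 on rescaling to library totals), 1 osteoblast marker was higher and 9 lower (−1.30; 4 and 8 on rescaling), 0 chondrocyte markers were higher and 2 lower (0.12; 4 and 1), 4 reticular cell markers were higher and 2 lower (0.22; 11 and 1), and 1 endothelial marker was higher and 3 lower (−0.55; 4 and 0). In the same comparison 8 blood (−2.88), 8 red cell (−4.41) and 6 skeletal muscle markers (−2.62) were lower, with the same counts on rescaling, and 6 proliferation genes (−0.86; 3 on rescaling).

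In late against early ch-, 0 osteoblast markers were higher and 11 lower (median −1.65; 1 and 8 on rescaling), 11 chondrocyte markers were lower (−3.03; 11 on rescaling), 2 pericyte and smooth muscle markers were higher and 5 lower (−0.39; 6 and 2 with a median of 0.38), 8 reticular cell markers were higher and 2 lower (0.59; 11 and 0), and 1 endothelial marker was higher and 1 lower (−0.48; 3 and 0). There 8 blood (−2.70; 8 on rescaling), 7 red cell (−4.35; 7) and 6 skeletal muscle markers (−1.96; 5) were lower, as were 5 proliferation genes (−0.83; 1 higher and 2 lower on rescaling). Their part in the differences of the 10 factors was not tested.

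**Figure D3:**
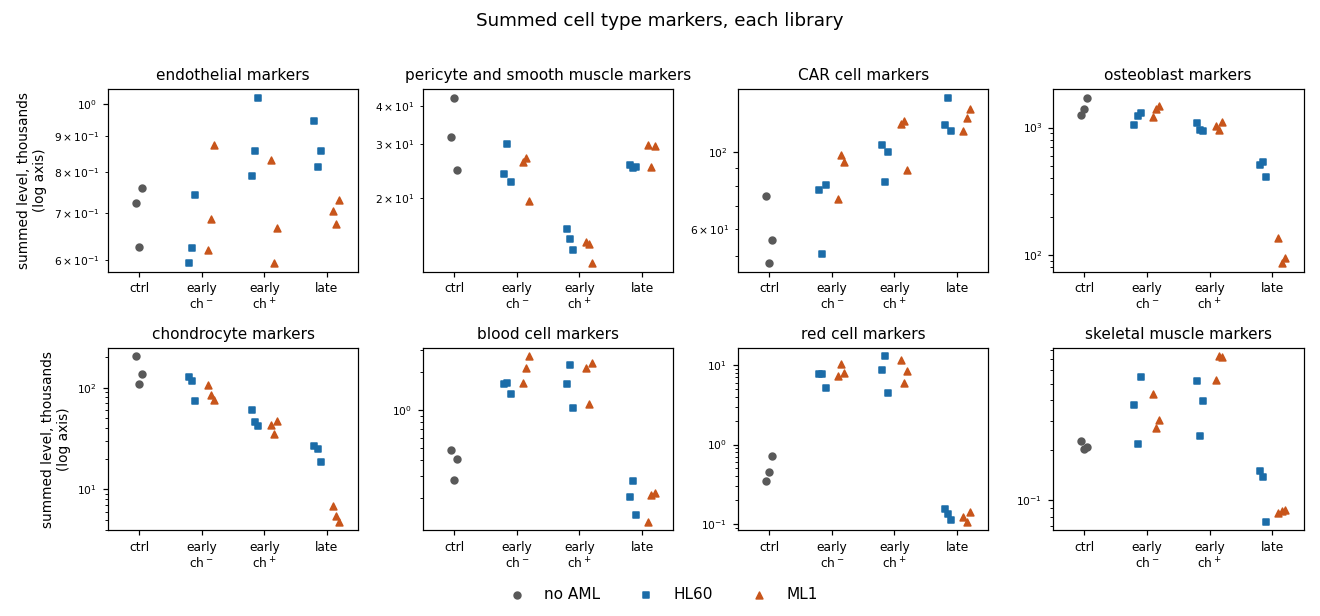
Summed linear level of the markers of 8 cell types (y axis, in units of 1e3, log scale) in every library, by group (x axis), with grey circles for ctrl, blue squares for HL60 and orange triangles for ML1. The sum of reticular cell markers lies between 47.7 and 74.6 in ctrl and between 115 and 144 in late, and that of osteoblast markers between 1260 and 1720 in ctrl and between 86.1 and 532 in late.

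Over the 21 libraries, which share their groups, the gene most like Vegfc was Cxcl12 (Pearson r = 0.893), followed by Arrdc4 (0.885) and Hp (0.875), of which Cxcl12 and Hp are among the reticular cell markers. Those most like Angpt2 were S1pr3 (0.899), Adap2 (0.876) and Kmt2e (0.855), and those most like Fgf7 were Cpeb1 (0.843) and Csf1 (0.819). Among the 45 pairs of the 10 factors, the highest r was 0.79 (Pgf and Angpt2) and the lowest was −0.61 (Pdgfa with Angpt2 and with Angptl4). These are descriptions over libraries of 4 groups, not tests.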

How the data were processed

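RNA of 21 libraries of sorted Nes low cells had been aligned to mm10 with STAR 2.5.1b and counted by strand with RSEM 1.2.29, per the submitters' processing notes, and the authors deposited regularized log2 values made with DESeq2 1.10.1. The table held 26852 genes and 0 columns without a sample. Read depth could not be recovered. Genes with a mean of at least 3.32 (12976) were fitted with limma 3.58.1 in R 4.3.3 (eBayes with trend), once with 4 groups (6 comparisons) and once with 7, the lines apart (12 comparisons), and p-values were adjusted over all tested genes by the Benjamini-Hochberg method and called under 0.1. Tables and figures were made in Python 3.11.15. The code was tested on simulated data. Positions came from GENCODE M21 (GRCm38) and promoter sequences from RefSeq (GRCm38.p6). The 10 factors and all lists were chosen with earlier results of these data known. All 10 factors were named whatever their values, from each list at most 4 called genes with the largest absolute difference in a comparison, and for each called factor up to 3 genes with the highest Pearson r over the 21 libraries. Alternatives covered the filter, scaling, variance, sample weights, the libraries used, cell line in the fit, the threshold, each line alone and each library left out in turn.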

Additional observations from a re-analysis of the deposited data

Results flagged for a closer look

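Of 30 groups looked at for a library set apart from the rest of its group, 2 held such a value, where chance alone picks out about 1 in 20 groups. Pgf was 4.57 in ML1 early ch- replicate 543, and the gap to its nearest neighbour took a share of 0.67 of the range of the group. Fgf7 was 8.20 in ML1 early ch+ replicate 541, with a gap share of 0.77. Pdgfa differed between HL60 and ML1 in late by 0.77, and rescaling to library totals ended that call. The cause of these values was not tested.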

How the results depend on the processing

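The alternatives were run on all 37 called differences of the 10 factors and on 56 of those not called. Among the called, 2 reversed under an alternative (Pdgfa on rescaling), and 125 calls were lost over 24 results. Among these 56, 42 values reversed over 15 results, and 51 calls were gained in 18 results. The cause of these changes was not tested.

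With no filter, 1 factor was called in early ch+ against ctrl (594 of 26852 genes) and 3 in late against ch+ (2367 genes), and 4515 genes were called in late against ch-. With a filter at a mean of 5, 0 factors were called in ch+ against ch- (721 genes), Vegfd being removed. Quantile normalization moved Vegfa in late against ctrl to 0.06.

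Rescaling to library totals gave 8323 called genes and 8 called factors in late against ctrl, with Vegfa at 0.69 and Vegfd at 0.47. It gave 2 factors in ch+ against ch- (1073 genes), with Angpt2 at 0.04, Angptl4 at 0.12 and Fgf2 at 0.12. It gave 9055 genes in late against ch+ (Pdgfa 0.13) and 10185 in late against ch- (Pdgfa 0.12), and put Pdgfa in HL60 late against ctrl at 0.11.

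Without the variance trend, 3 factors were called in late against ch+ (2439 genes). With sample weights, Vegfa in late against ctrl was 0.02, 156 genes were called in ch- against ctrl. The same setting called 2 factors in ch+ against ch- (662 genes), with Angptl4 at 0.09. With cell line in the fit, 2 factors were called in ch+ against ch- (1002 genes).

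At an adjusted p under 0.05, 512 genes were called in ch+ against ctrl, 156 in ch- against ctrl, and 3 factors in late against ch+ (2012 genes). With a log2 difference of at least 1 as well, the calls were 1521 genes in late against ctrl, 478 genes and 1 factor in ch+ against ctrl, 385 genes between ch+ and ch-, 1054 genes and 3 factors in late against ch+, and 1138 genes and 2 factors in late against ch-.

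With the HL60 libraries alone, 1756 genes and 3 factors were called in late against ctrl, 478 genes in ch+ against ch-, 1286 genes and 2 factors in late against ch+, and 1513 genes and 4 factors in late against ch-. Vegfd in late against ctrl was 0.33 and Vegfb in ch+ against ctrl 0.12. Between ch+ and ch-, Pgf was −0.08 and Angptl4 0.18. With the ML1 libraries alone, Vegfa in late against ctrl was 0.20, and 1 factor was called in ch- against ctrl (288 genes). In ch+ against ch- they gave 460 called genes, and Vegfb was −0.36, Angpt2 0.27 and Fgf2 0.08.

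With each library left out in turn, differences in late against ctrl ran from −0.11 (without ctrl replicate 375) to 0.06 (without HL60 late replicate 397) for Vegfa and from −0.82 (without ctrl replicate 373) to 0.33 (without ctrl replicate 374) for Vegfd. In ch+ against ctrl, 0 (without ctrl replicate 375, with 634 genes) to 2 factors were called, and differences ran from −0.39 to 0.07 (without ML1 ch+ replicate 538) for Vegfb, −0.53 to 0.06 (without ctrl replicate 374) for Pgf and −0.51 to 0.30 (without ctrl replicate 373) for Fgf2. In ch- against ctrl, 136 (without ctrl replicate 374, and without 375) to 280 genes and 0 to 1 (without ctrl replicate 373, with 224 genes) factors were called, and differences ran from −0.74 to 0.01 (without ML1 ch- replicate 543) for Pgf and −0.48 to 0.33 (without ctrl replicate 373) for Fgf2.

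In ch+ against ch-, 1 to 2 (without ML1 late replicate 581, with 790 genes) factors were called. Differences ran from −0.07 to 0.15 for Vegfa and −0.16 to 0.36 for Pgf (both lowest without ML1 ch- replicate 543), −0.28 to 0.04 for Angpt2 and −0.15 to 0.09 for Fgf2 (both highest without HL60 ch+ replicate 524), and −0.12 to 0.09 for Angptl4 (highest without ML1 ch+ replicate 541). In late against ch+, 3 (without ML1 late replicate 581, with 2208 genes) to 6 factors were called. Fgf7 in ML1 ch+ against ch- ran from −0.06 (without ML1 ch- replicate 546) to 0.33.

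No paired analysis was run, and the fit treats ch+ and ch- libraries as independent, although these cells came from the same marrows. Replicate numbers are not shared between groups. They run in the same steps in ch+ and ch- within each line, but the labels do not tie them to hosts. Whole reads could not be recovered from regularized values, so tests on read counts were not run. With 3 ctrl libraries, every comparison with ctrl leans on few values, and several calls ended without 1 of them. The ML1 late libraries had the lowest totals and carry the treatment label at odds with their titles, so line and label cannot be told apart there.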

Other observations

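Of the other factors called in at least 1 comparison, the genes most alike over the 21 libraries (Pearson r, a description) were Cpd (0.79), Syt11 (0.789) and Gnpnat1 (0.782) for Vegfd, and H2-Q1 (0.848), Kcne4 (0.821) and Rbpj (0.812) for Pgf. For Angptl4 they were Picalm (0.805), Rnf125 (0.785) and Gm8979 (0.78), for Pdgfa Bicd1 (0.862), Raver1 (0.855) and Igdcc4 (0.853), and for Fgf2 Scara5 (0.823), Hsf2bp (0.819) and Nid2 (0.813).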
